A study of Mus musculus with 27 samples.

Results

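The complement genes C1qa, C1qb, C1qc, C1ra, C1s1, C2, C3, C4b, Cfb and Serping1 were followed in RNA-seq of mouse tumors. All 10 symbols were matched to 1 gene identifier each among the 54752 genes of the count tables. Complement is a cascade of secreted proteins. C1q, built from the A, B and C chains, recognises antibody and other ligands, and the proteases C1r and C1s, encoded here by C1ra and C1s1, then cleave C4 and C2 to form an enzyme that splits C3. Factor B (Cfb) serves the alternative pathway of C3 cleavage, and Serping1 encodes the C1 inhibitor. In tumors, macrophages are known as a main source of C1q, and several of the other genes are known to respond to interferon-gamma.

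The study compared CT26 tumors in which Mettl3 or Mettl14, the partner subunits of the m6A RNA methyltransferase, had been targeted, with tumors that had received a control guide, all described as being under anti-PD-1 therapy. CT26 is a colon carcinoma line of BALB/c mice, and the guide RNAs were delivered to the cultured cells by retrovirus before the cells were placed under the skin of the flank of BALB/c mice. The groups were 5 Mettl3 KO, 5 Mettl14 KO and 5 control libraries. The genotype field of the libraries titled Mettl14_KO reads Mettl4 KO, and the titles were followed. The treatment protocol names 200 µg (10 mg/kg) of antibody given from day 11 to day 23, and it lists anti-CTLA-4 and an IgG beside anti-PD-1. Whether the targeted cells were clones or a pool, and the number of guides, are not stated in the labels. The host cells of a tumor carry no knockout, and in bulk tumor RNA fewer cells of a type and less RNA per cell cannot be told apart. Nothing in the labels says whether the 5 libraries of a group came from separate mice, so p-values measure the spread between libraries.

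Reads assigned to genes numbered 4354273 to 9332032 per library in Mettl3 KO, 6452364 to 17022057 in Mettl14 KO and 5520340 to 20978633 in control. Of the uniquely aligned reads, 60.2 to 78.0% lay outside genes in Mettl3 KO, 53.6 to 65.9% in Mettl14 KO and 44.3 to 78.6% in control, where replicate 1 stood apart from the other 4, which reached 53.8%. Of the targeted genes, Mettl3 stood at 13.7 ± 1.44 CPM in Mettl3 KO, against 19.4 ± 3.56 CPM in control (SD, n = 5 each), with a log2 fold change of -0.56 and an adjusted p of 0.0545 (SE 0.15). Mettl14 stood at 61.2 ± 12.3 CPM in Mettl14 KO, against 68.9 ± 11.6 CPM in control, with a log2 fold change of -0.21 and an adjusted p of 0.735 (SE 0.17). Neither passed the threshold of 0.05, so these levels do not check the knockout labels. Levels below are CPM, relative to the reads on genes, after TMM scaling over the 15 libraries, and tests are edgeR's quasi-likelihood tests with Benjamini-Hochberg adjustment over all genes unless another is named.

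The chains of C1q had the highest levels per length of the 10 genes, and the 3 groups overlapped for each chain. The genes lie side by side on chromosome 4 of mm10, all on the minus strand: C1qb at 136880129 to 136886187, C1qc at 136889804 to 136893065 and C1qa at 136895917 to 136898803. RefSeq promoter windows (build GRCm38.p6, 250 bases before to 50 after the start, written along the gene) were found for C1qb and C1qc and are shown because these neighbours moved together across tumors. Capitals mark ACTTCCTC, the reverse complement of GAGGAAGT, the letters searched for PU.1, a transcription factor of macrophages.
C1qb (chr4:136886151-136886450, minus strand): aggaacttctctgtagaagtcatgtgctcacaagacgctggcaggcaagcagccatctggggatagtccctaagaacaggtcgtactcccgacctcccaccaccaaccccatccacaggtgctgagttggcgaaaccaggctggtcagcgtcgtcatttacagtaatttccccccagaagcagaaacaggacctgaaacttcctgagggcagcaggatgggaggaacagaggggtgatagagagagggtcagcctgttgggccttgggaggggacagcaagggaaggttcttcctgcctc
C1qc (chr4:136892865-136893164, minus strand): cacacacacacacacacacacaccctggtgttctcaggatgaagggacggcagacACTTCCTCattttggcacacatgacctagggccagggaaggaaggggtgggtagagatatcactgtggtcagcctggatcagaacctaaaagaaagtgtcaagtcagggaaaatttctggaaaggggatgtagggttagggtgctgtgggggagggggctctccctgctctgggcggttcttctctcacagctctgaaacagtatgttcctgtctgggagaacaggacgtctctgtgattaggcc

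Of 3 motifs searched on both strands (GAGGAAGT for PU.1, TGCTGAC for a MAF site and GAAANNGAA for IRF), only this PU.1 match was found in the windows of C1qb and C1qc. It begins 195 bases before the RefSeq start of C1qc, which lies inside the gene span given above. The letters GAGGAAGT occur in 3.20% of 32851 RefSeq windows, TGCTGAC in 4.67% and GAAANNGAA in 8.56%. A match is a run of letters in the window and not a measured binding site.

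C1qa had 325, 200.4, 159, 137 and 173 CPM in Mettl3 KO, 256, 192, 190.5, 579 and 129 CPM in Mettl14 KO, against 98.2, 158, 213, 236 and 219.9 CPM in control. Replicate 1 of Mettl3 KO and replicate 4 of Mettl14 KO were the highest of their groups, and replicate 1 of control the lowest of all 15. C1qb averaged 131 ± 53.9 CPM in Mettl3 KO, 162 ± 100.5 CPM in Mettl14 KO, against 113 ± 36.1 CPM in control, and C1qc 139 ± 41.1 CPM in Mettl3 KO, 187 ± 128 CPM in Mettl14 KO, against 137 ± 47.2 CPM in control (SD, n = 5 each). For each chain 1 of 5 Mettl3 KO libraries lay above every control library.

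In Mettl3 KO over control the log2 fold change was 0.05 for C1qa (95% interval -0.57 to 0.66), 0.16 for C1qb (-0.48 to 0.81) and -0.03 for C1qc (-0.63 to 0.57). The adjusted p-values were 0.896 for C1qa, 0.665 for C1qb and 0.924 for C1qc. In Mettl14 KO over control the values were 0.49 for C1qa (-0.28 to 1.25), 0.47 for C1qb (-0.28 to 1.21) and 0.40 for C1qc (-0.41 to 1.21), with adjusted p-values of 0.695, 0.698 and 0.807 in the order of the chains. Without replicate 4 of Mettl14 KO the value for C1qa was 0.05 (SE 0.25). These intervals leave room for changes of either sign.

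The chains kept a nearly fixed ratio. Over 15 libraries C1qb had 0.624 ± 0.050 reads for each C1qa read and C1qc had 0.711 ± 0.047 (SD, n = 15). In exact permutation tests of these ratios, and of that of C1s1 to C1ra, none of 6 comparisons of a knockout with control passed (smallest adjusted p = 0.691). After group means were removed, the log2 levels of C1qa and C1qb correlated with r = 0.984 (Spearman rho = 0.979), those of C1qa and C1qc with r = 0.988 (rho = 0.993) and those of C1qb and C1qc with r = 0.964 (rho = 0.975). All 3 pairs passed after adjustment over a family of 8 relations (permutation test, 15 libraries, adjusted p = 8e-05 for Pearson's r in each pair). With the 2 most extreme libraries left out, r was 0.945 to 0.986 in these pairs.

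The proteases of the C1 complex, C1ra and C1s1, had higher means in both knockouts, with overlapping groups. They lie on chromosome 6 of mm10, C1ra at 124512405 to 124523443 on the plus strand and C1s1 at 124530345 to 124542359 on the minus strand, with their 3′ ends 6901 bases apart. Their RefSeq windows are shown as those of a second pair that moved together, and the RefSeq start of C1ra lies inside its gene span given here. Neither window holds any of the 3 motifs, so neither has capitals. Of the windows found for C1s1 the first is shown.
C1ra (chr6:124512371-124512670, plus strand): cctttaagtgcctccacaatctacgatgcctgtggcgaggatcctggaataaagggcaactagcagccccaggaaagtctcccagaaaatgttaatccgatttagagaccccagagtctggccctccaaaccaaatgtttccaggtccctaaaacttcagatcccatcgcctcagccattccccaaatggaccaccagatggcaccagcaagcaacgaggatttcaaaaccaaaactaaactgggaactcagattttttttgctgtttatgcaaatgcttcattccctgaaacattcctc
C1s1 (chr6:124542310-124542609, minus strand): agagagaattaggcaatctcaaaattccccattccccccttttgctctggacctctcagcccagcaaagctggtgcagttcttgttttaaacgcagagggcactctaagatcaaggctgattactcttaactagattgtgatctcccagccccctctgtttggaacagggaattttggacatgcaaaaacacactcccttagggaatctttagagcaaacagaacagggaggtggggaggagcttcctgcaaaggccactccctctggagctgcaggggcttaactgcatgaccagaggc

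No match to the 3 motifs was found in the window of C3 either, and C1qa, C2, C4b, Cfb and Serping1 have no window here.

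C1ra had 57.0, 47.4, 31.0, 39.5 and 33.8 CPM in Mettl3 KO, 44.2, 34.4, 28.2, 87.9 and 17.7 CPM in Mettl14 KO, against 15.6, 20.4, 34.5, 22.8 and 20.4 CPM in control. Of the Mettl3 KO libraries 5 of 5 lay above the control mean of 22.8 CPM and 3 of 5 above every control library. C1ra's log2 fold change was 0.81 in Mettl3 KO (SE 0.24, 95% interval 0.29 to 1.33, adjusted p = 0.0593) and 0.84 in Mettl14 KO (SE 0.35, 0.07 to 1.61, adjusted p = 0.398). C1s1 had 134, 104, 75.8, 137 and 76.6 CPM in Mettl3 KO, 148, 115, 67.7, 265 and 45.7 CPM in Mettl14 KO, against 43.8, 61.2, 100.9, 57.8 and 43.2 CPM in control. Its log2 fold change was 0.73 in Mettl3 KO (SE 0.28, adjusted p = 0.103) and 1.00 in Mettl14 KO (SE 0.40, adjusted p = 0.373). Neither gene passed in either knockout. C1ra and C1s1 correlated with r = 0.945 after group means were removed (rho = 0.875, permutation test, adjusted p = 0.000112), and with r = 0.866 without the 2 farthest libraries.

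C4b and C2 encode the substrates of C1s. C4b, on chromosome 17 at 34728380 to 34743882, had 192, 98.0, 92.6, 71.4 and 114 CPM in Mettl3 KO, 173, 147, 77.5, 314 and 46.6 CPM in Mettl14 KO, against 31.9, 37.5, 84.4, 98.8 and 70.1 CPM in control. The groups overlapped, with 2 of 5 Mettl3 KO and 3 of 5 Mettl14 KO libraries above every control library. The log2 fold change of C4b was 0.75 in Mettl3 KO (SE 0.35, adjusted p = 0.155) and 1.17 in Mettl14 KO (SE 0.45, adjusted p = 0.354).

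C2 was scarce, with 10 to 131 reads in a library. It had 6.61, 2.51, 4.38, 4.35 and 1.22 CPM in Mettl3 KO, 3.68, 3.02, 3.16, 10.25 and 2.22 CPM in Mettl14 KO, against 4.99, 1.06, 1.08, 1.53 and 1.65 CPM in control. Control replicate 1 lay above 4 of 5 libraries of either knockout, and the other 4 controls lay below all 5 Mettl14 KO libraries. C2's log2 fold change was 0.84 in Mettl3 KO (SE 0.60, adjusted p = 0.307) and 1.06 in Mettl14 KO (SE 0.56, adjusted p = 0.516). Without control replicate 1 it was 1.65 in Mettl3 KO (SE 0.48, adjusted p = 0.0103), in a fit that called 36.2% of all genes higher, and 1.71 in Mettl14 KO (SE 0.42, adjusted p = 0.0455), in a fit that called 2.86% higher. With the share of reads outside genes as a covariate over all 10 libraries it was -0.000429 in Mettl3 KO (SE 0.32, adjusted p = 0.9998) and 1.15 in Mettl14 KO (SE 0.45, adjusted p = 0.224). That library also had the highest share of reads outside genes and a level of 0.877 CPM per kb over olfactory and vomeronasal receptor genes, which tumors are not known to use, against group medians of 0.625 in Mettl3 KO, 0.177 in Mettl14 KO and 0.130 in control. C2 exceeded this receptor level by 1.32 to 14.9 times and each of the 8 more abundant genes by at least 5.98 times. With the receptor level subtracted, the log2 ratio of the C2 means was 0.69 in place of 0.89 in Mettl3 KO and 1.74 in place of 1.12 in Mettl14 KO.

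C3, the central component on which all pathways converge, had the largest fold changes of the 9 genes tested and the largest standard errors. On chromosome 17 at 57203970 to 57228136, it had 993, 146, 129.6, 237 and 133 CPM in Mettl3 KO, 213, 287, 81.1, 948 and 81.2 CPM in Mettl14 KO, against 64.7, 76.2, 157, 99.5 and 44.8 CPM in control. One library of each knockout stood far above the rest, and the other 8 knockout libraries lay between 81.1 and 287 CPM. The log2 fold change of C3 was 1.87 in Mettl3 KO (SE 0.61, 95% interval 0.54 to 3.20, adjusted p = 0.0720) and 1.79 in Mettl14 KO (SE 0.62, 0.44 to 3.15, adjusted p = 0.307). Without the high library it was 0.97 in Mettl3 KO (SE 0.36, adjusted p = 0.293) and 0.90 in Mettl14 KO (SE 0.44, adjusted p = 0.799). The ratio of means was 3.71 in Mettl3 KO and the ratio of medians 1.91.

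Serping1 encodes the inhibitor of C1r and C1s. On chromosome 2 at 84765387 to 84775444, it had 202, 92.8, 71.8, 138 and 129 CPM in Mettl3 KO, 139, 129.9, 92.0, 262 and 73.4 CPM in Mettl14 KO, against 32.7, 35.1, 97.6, 51.3 and 59.3 CPM in control. All 10 knockout libraries lay above the control mean of 55.2 CPM, and 3 of 5 in each knockout lay above every control library, of which replicate 3 was the highest. The log2 fold change was 1.14 in Mettl3 KO (SE 0.36, 95% interval 0.36 to 1.92, adjusted p = 0.0665) and 1.28 in Mettl14 KO (SE 0.36, 0.49 to 2.06, adjusted p = 0.243). Without the highest library of each knockout Serping1 was 1.06 in Mettl3 KO (SE 0.33) and 0.97 in Mettl14 KO (SE 0.31).

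**Figure D1:**
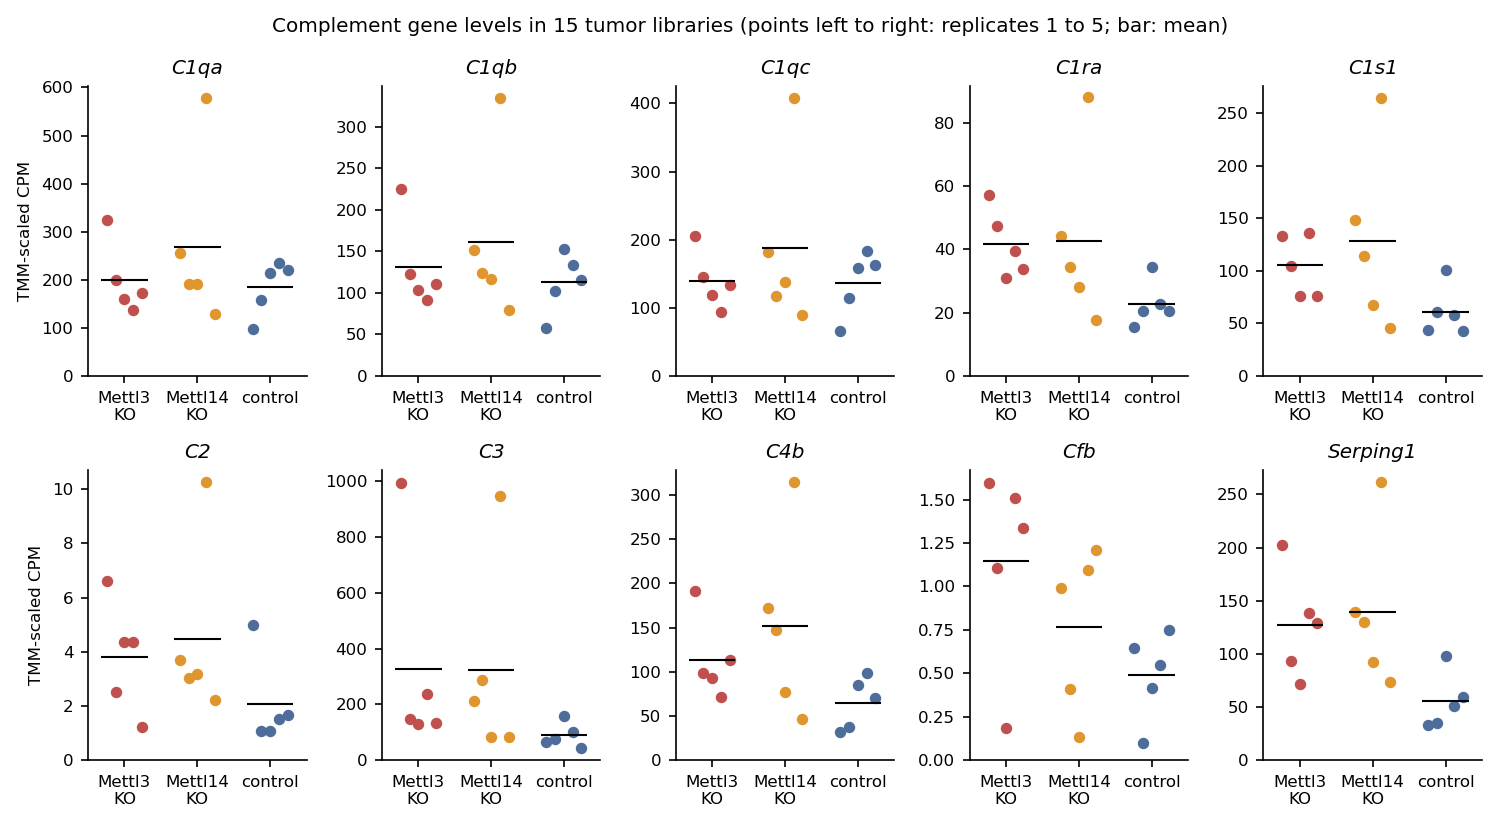
TMM-scaled CPM (linear axes from 0) of the 10 complement genes in 15 tumor libraries, Mettl3 KO, Mettl14 KO and control from left to right, 1 point per library and a bar at the mean. Mettl3 KO replicate 1 and Mettl14 KO replicate 4 are the top points of their groups for 9 of 10 genes each, and the C3 panel reaches 993 and 948 CPM there.

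None of the 9 genes that passed the count filter was called in Mettl3 KO over control by edgeR, where 0.406% of 21427 genes were called higher. At an unadjusted p below 0.05 were 4 of the 9 (C1ra, C1s1, C3 and Serping1) and 6918 of all genes. DESeq2 called those 4 higher. Of the genes to which it gave an adjusted p (C2 received none), it called 4.15% higher and 22.8% in either direction. Limma voom called 3 higher (C1ra, C1s1 and Serping1), against 11.2% of genes called higher. EdgeR without control replicate 1 called 5 (C1ra, C1s1, C2, C4b and Serping1) of 10 tested, in a fit that called 36.2% of genes higher. Cfb passed the count filter there and was not called. An edgeR fit with the replicate number as an added term (a replicate block) called 2 (C1ra and Serping1), against 8.83% of genes called higher. None of the 9 had every Mettl3 KO library above every control library, as 1.76% of genes did.

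In Mettl14 KO over control edgeR called 0 of the 9 genes, and 0% of 21555 genes higher. At an unadjusted p below 0.05 were 5 of the 9 (C1ra, C1s1, C3, C4b and Serping1) and 2443 of all genes. DESeq2 called Serping1 alone among the 9 (2.31% of genes higher), and edgeR without control replicate 1 called C2 alone (2.86% of genes higher). None of the 9 had every Mettl14 KO library above every control library, against 0.682% of genes. The median log2 fold change of the 9 genes was 0.75 in Mettl3 KO and 1.00 in Mettl14 KO, beside -0.14 and -0.08 over all genes tested in the same order of knockouts. Both knockouts are set against the same 5 control libraries, so their values are not independent of each other.

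Fold changes in Mettl3 KO depended on abundance, and genes as abundant as the C1 genes, C3, C4b and Serping1 had medians near -0.5. Relative to the median of the genes nearest in abundance, the log2 fold change in Mettl3 KO was 0.62 for C1qa, 1.24 for C1ra, 1.26 for C4b, 2.44 for C3 and 1.66 for Serping1, and 0.01 for C2, which lay among scarce genes with a median of 0.84. In Mettl14 KO, where those medians were near 0, it was 0.66 for C1qa, 0.92 for C1ra, 1.30 for C4b, 1.95 for C3 and 1.39 for Serping1. The log2 fold changes of C1ra, C1s1, C3, C4b and Serping1 were above 0 in 19 of 19 settings in each knockout, those of C1qc in 11 of 19 in Mettl3 KO.

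**Figure D2:**
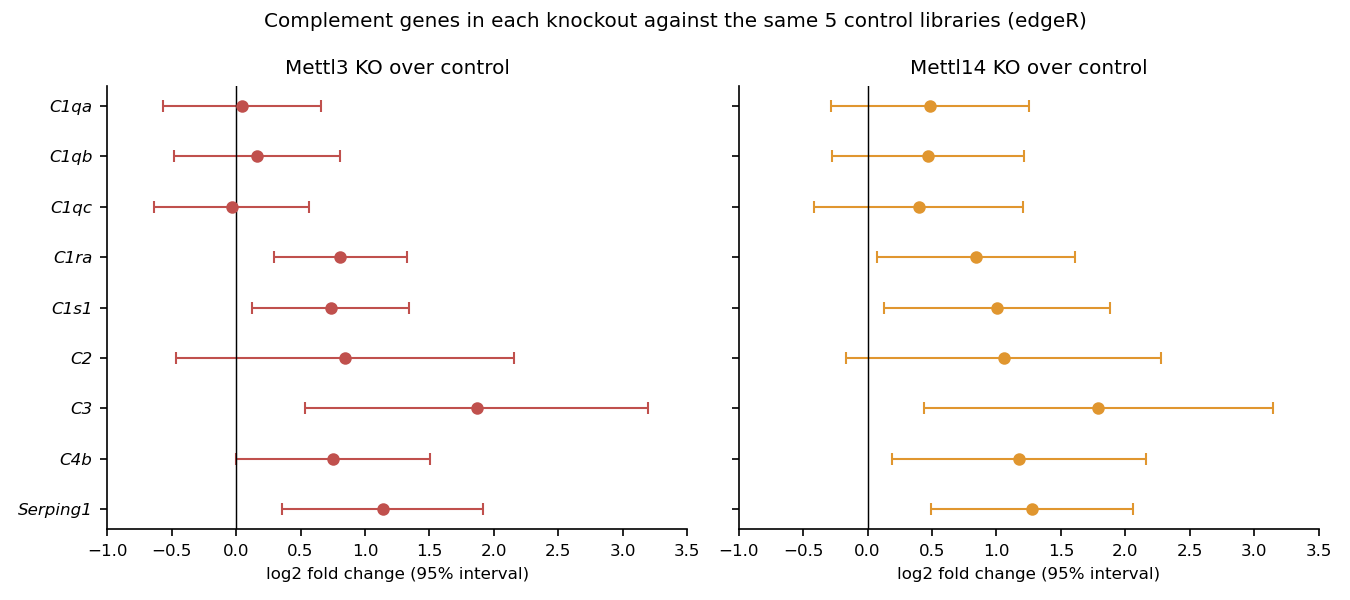
Log2 fold change (x axis) with its 95% interval for the 9 complement genes tested, Mettl3 KO over control left and Mettl14 KO over control right, from edgeR. The C1q chains straddle 0 on the left, at -0.03 to 0.16, while C3 and Serping1 lie above 1 in both panels, and no gene passed the adjusted threshold.

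Mettl3 KO and Mettl14 KO did not differ detectably in these genes. All 10 genes were tested in a fit of 15 libraries, 0 were called by edgeR or DESeq2, and 0% of 24566 genes were called higher by edgeR, with 3150 at an unadjusted p below 0.05, none of them among the 10, and 68 called by DESeq2. The log2 fold changes of Mettl3 KO over Mettl14 KO ran from -0.44 for C1qa (95% interval -1.20 to 0.32) to 0.53 for Cfb (-0.81 to 1.87), so differences of more than 2-fold remain possible for several genes. Without Mettl14 KO replicate 4 that of C1qa was 0.13 and that of C1ra 0.50 (SE 0.25, adjusted p = 0.509).

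The other genes were next set against C1q within each library, a ratio that needs no scaling between libraries. This comparison was chosen after the levels had been seen, and 12 exact permutation tests of it were run, with no adjustment and a smallest possible p of 0.00794. Serping1 reads were 26.8, 19.8, 18.8, 42.9 and 31.0% of the summed C1q level in Mettl3 KO, 23.6, 30.0, 20.6, 19.8 and 24.7% in Mettl14 KO, and 14.8, 9.32, 18.6, 9.27 and 11.9% in control. All 10 knockout libraries lay above all 5 control libraries (exact permutation p = 0.00794 for each knockout), with log2 differences of 1.11 in Mettl3 KO and 0.93 in Mettl14 KO.

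C4b relative to C1q was 25.4, 20.9, 24.2, 22.2 and 27.2% in Mettl3 KO, 29.3, 33.9, 17.4, 23.8 and 15.7% in Mettl14 KO, and 14.4, 9.99, 16.1, 17.9 and 14.1% in control. The Mettl3 KO libraries again lay above all controls (log2 difference 0.75, exact permutation p = 0.00794), and 3 of 5 Mettl14 KO libraries did (0.69, exact permutation p = 0.0397). C1ra averaged 9.22 ± 1.95% of C1q in Mettl3 KO, 6.88 ± 0.824% in Mettl14 KO and 5.46 ± 1.36% in control (SD, n = 5 each), without overlap between Mettl3 KO and control (log2 difference 0.77, exact permutation p = 0.00794). C3 ranged from 31.1 to 132% of C1q in Mettl3 KO, from 18.2 to 71.7% in Mettl14 KO and from 8.98 to 29.8% in control, with log2 differences of 1.37 in Mettl3 KO (exact permutation p = 0.00794) and 0.98 in Mettl14 KO (exact permutation p = 0.0952).

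Of the 6 genes set against C1q, 4 (C1ra, C3, C4b and Serping1) had every Mettl3 KO library above every control library, against 0.484% of 24566 genes set against C1q likewise, and 1 (Serping1) had every Mettl14 KO library above every control, against 0.305% of genes. C1s1 had log2 differences of 0.69 in Mettl3 KO (exact permutation p = 0.0635) and 0.50 in Mettl14 KO (exact permutation p = 0.151), and C2 of 0.83 and 0.78 in that order, with exact permutation p-values of 0.286 and 0.302. Without the highest library of each knockout the C3 difference was 1.02 in Mettl3 KO and 0.76 in Mettl14 KO, and that of Serping1 was 1.11 in Mettl3 KO and 0.99 in Mettl14 KO. Without control replicate 1 the C2 difference was 1.44 in Mettl3 KO and 1.39 in Mettl14 KO.

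**Figure D3:**
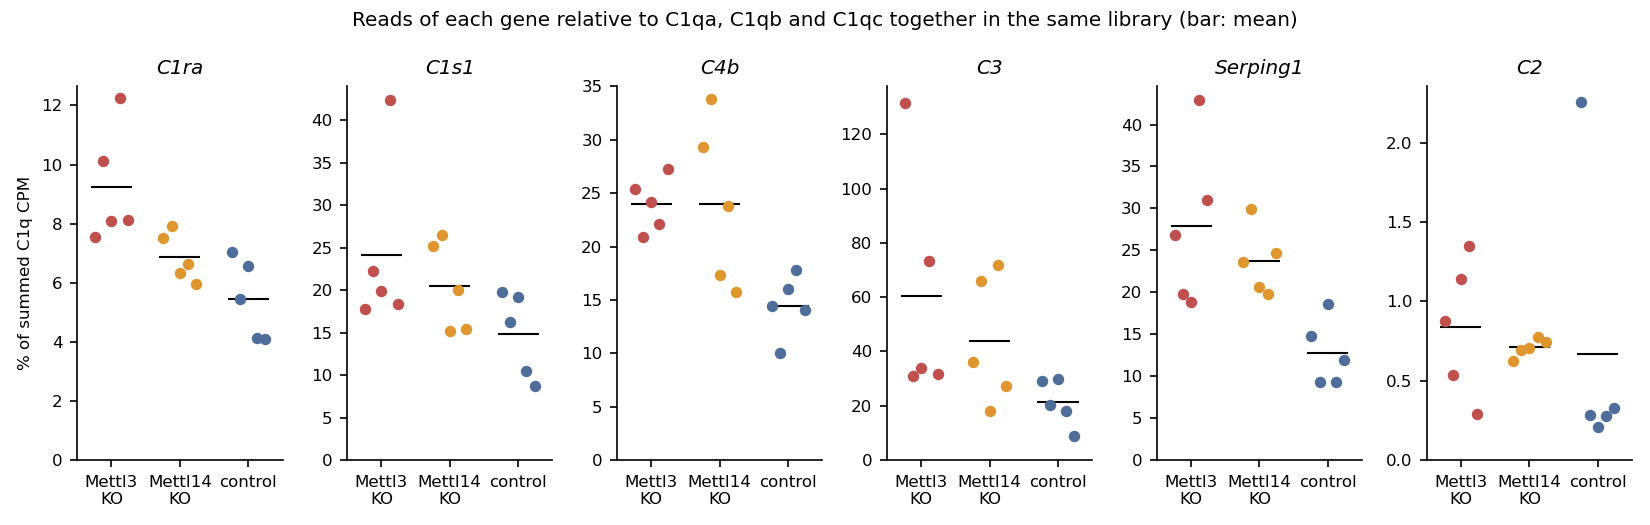
Level of each gene as a percent of the summed level of C1qa, C1qb and C1qc in the same library (linear axes from 0), Mettl3 KO, Mettl14 KO and control from left to right, replicates 1 to 5 in order, bar at the mean. The Serping1 points of both knockouts lie at 18.8 to 42.9%, above the controls at 9.27 to 18.6%, and the C2 panel has control replicate 1 alone at 2.25%.

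The abundance of the 10 genes was ordered per kb of exon. Over 15 libraries C1qa averaged 209 CPM per kb, C1qb 124, C1qc 80.0, C3 47.8, Serping1 46.1, C1s1 31.4, C4b 19.3, C1ra 11.96, C2 0.890 and Cfb 0.284 CPM per kb. C1qa was above C1qb in 15 of 15 libraries, C1qb above C1qc in 15, C1qc above C3 in 14, Serping1 above C1s1 in 14, C1s1 above C4b in 15, C4b above C1ra in 13, C1ra above C2 in 15 and C2 above Cfb in 14. C3 was above Serping1 in only 2 of 15, Mettl3 KO replicate 1 and Mettl14 KO replicate 4, so the place of C3 in this order rests on them. The places of C2 and Cfb hold for the count table only. In the authors' deposited table, described below, Cfb had a mean of 568 normalised reads and C2 59.8 over Mettl3 KO and control libraries. Over Mettl14 KO and control libraries the means were 706 and 81.9.

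Cfb, whose product forms the alternative C3-cleaving enzyme, gave only 1 to 17 reads in a library. Its levels were 1.60, 1.11, 0.182, 1.51 and 1.34 CPM in Mettl3 KO, 0.993, 0.411, 0.132, 1.10 and 1.21 CPM in Mettl14 KO, against 0.644, 0.096, 0.414, 0.547 and 0.749 CPM in control. Over all 10 libraries of either comparison with control it did not pass the count filter. The difference on the log2(CPM + 0.5) scale was 0.68 in Mettl3 KO (exact permutation p = 0.0952, two-sided) and 0.30 in Mettl14 KO (exact permutation p = 0.365). It exceeded the receptor gene level per kb in 8 of 15 libraries, so its reads in the other 7 were at or below that level.

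The annotation overlaps of Cfb, C2 and C1s1 may limit their counts. In GENCODE M21, 79.5% of the exon bases of Cfb (chromosome 17, 34856374 to 34862518, minus strand) and 42.8% of those of C2 (chromosome 17, 34862604 to 34898265, minus strand) also belong to Gm20547, a gene model on the same strand, which had 0 reads in the 15 libraries. The 2 genes lie 85 bases apart. Of the C1s1 exon bases 18.4% belong to Gm16567 on the other strand. Windows of 75 bases, the read length, were compared with all other GENCODE transcripts: 81.2% of those of the longest coding Cfb transcript and 55.6% of those of C2 also occur in Gm20547, 40.1% of those of C1ra in its paralog C1rb, 23.5% of those of C4b in its paralog C4a and 14.7% of those of C1s1 in C1s2. None of the windows of C1qa, C1qb, C1qc, C3 or Serping1 occurs in another gene. How reads on shared bases were assigned is not given in the sources used here, so levels of C1ra, C1s1, C2, C4b and Cfb are uncertain in that respect.

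The authors' deposited table of fold changes holds other totals for the same genes. For Cfb its mean of normalised reads was 568 over Mettl3 KO and control libraries and 706 over Mettl14 KO and control libraries, against 6.82 and 7.04 computed from the count table in that order, ratios of 83.4 and 100.2. The ratio of the authors' deposited table to the count table was 2.51 and 2.32 for C2, 1.84 and 1.83 for C1ra and 1.37 and 1.54 for C1s1, and lay between 0.990 and 1.24 for C1qa, C1qb, C1qc, C3, C4b and Serping1. Among genes with a mean of at least 20 in the authors' table the median ratio of the count table to it was 1.06 (Mettl3 KO) and 1.03 (Mettl14 KO). That ratio was under 0.1 for 6.43% of these genes (Mettl3 KO) and 7.15% (Mettl14 KO), so Cfb was not alone.

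Of the 10 genes, 5 had an adjusted p below 0.05 and a positive log2 fold change in Mettl3 KO in the authors' deposited table, where 3.4% of genes with an adjusted p did. They were Cfb (1.36, lfcSE 0.33, padj 0.00234), C1ra (0.98, padj 0.00476), Serping1 (1.30, padj 0.00643), C2 (1.55, padj 0.0301) and C3 (2.03, padj 0.0341). For Mettl14 KO the authors' deposited table had 2, Serping1 (1.31, padj 0.0175) and Cfb (1.22, padj 0.0476), beside 2.03% of genes. It calls none of the C1q chains in either knockout. The Cfb calls of the authors' deposited table were made on those larger totals, while the count table holds 1 to 17 Cfb reads per library.

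**Figure D4:**
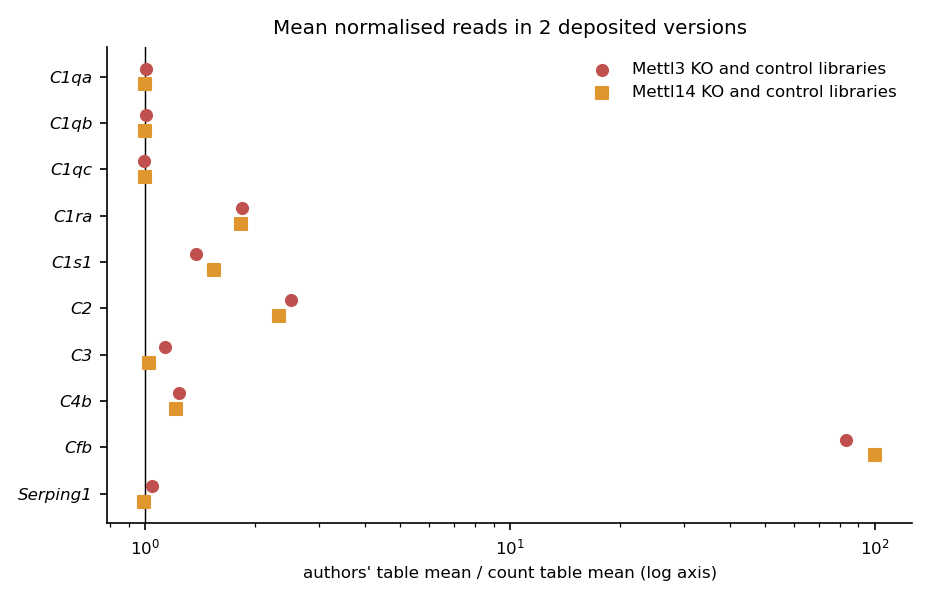
Mean of normalised reads in the authors' deposited fold change table divided by that from the count table (x axis, log scale) for the 10 complement genes, circles for Mettl3 KO with control and squares for Mettl14 KO with control. Cfb stands alone at 83.4 and 100.2, C2 and C1ra lie at 1.83 to 2.51, and the C1q chains lie near 1.

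Markers of other cell types were read beside these genes. The summed level of 14 macrophage markers ranged from 1338 to 4239 CPM in Mettl3 KO, 1885 to 5435 CPM in Mettl14 KO, against 1368 to 2802 CPM in control. That of 12 fibroblast markers ranged from 1361 to 4651 CPM in Mettl3 KO, 1969 to 8161 CPM in Mettl14 KO, against 1484 to 3420 CPM in control, and no marker of either list was at 0 in a whole group. These sums weigh the most abundant markers most, and single markers went both ways. Of 14 macrophage markers 10 had a log2 fold change above 0 in Mettl3 KO and 11 in Mettl14 KO. Of 12 fibroblast markers 8 and 10 did, in that order, beside 9631 of 21427 and 8460 of 21555 genes tested. The sum of 10 T cell markers was 59.8 to 201 CPM in Mettl3 KO, 35.4 to 296 CPM in Mettl14 KO, against 13.5 to 53.5 CPM in control. The sum of 6 hepatocyte markers, read because the liver makes most plasma complement, reached 17.6 CPM in Mettl3 KO, 6.58 CPM in Mettl14 KO, against 11.9 CPM in control. Within each knockout the highest sums of macrophage, fibroblast and T cell markers were in Mettl3 KO replicate 1 and Mettl14 KO replicate 4. These were also the libraries of their groups highest for 9 of 10 complement genes. Mettl14 KO replicate 4 lay 2.36 to 6.45 times above the median of the other 4 for the 8 genes other than C2 and Cfb, and Mettl3 KO replicate 1 lay 1.48 to 7.13 times above it, while 5.65% of all genes in Mettl14 KO replicate 4 and 7.94% in Mettl3 KO replicate 1 were at least 2 times above theirs. Of the 8 genes, 8 were so in Mettl14 KO replicate 4 and 3 in Mettl3 KO replicate 1. Both libraries were picked because they stood out for these genes, so the counts describe them and are not a test. The part of cell content in the differences between groups was not tested.

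An interferon-gamma response list of 18 genes summed to 2892 to 4152 CPM in Mettl3 KO, 1281 to 6619 CPM in Mettl14 KO, against 658 to 1494 CPM in control. All 18 had a log2 fold change above 0 in both knockouts, and 17 of the 18 had an unadjusted p below 0.05 in each. Of all 21427 genes tested in Mettl3 KO, 9631 were above 0 and 6918 had such a p. Of 21555 in Mettl14 KO, 8460 and 2443 did, in that order. The list was chosen with earlier results of these data known, so its counts are not independent of them. In Mettl3 KO edgeR called 13 of the 18 genes higher, against 0.406% of all genes. In Mettl14 KO 0 were called by edgeR, which called no gene there, and DESeq2 called 505 genes in all.

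After group means were removed, the mean log2 level of the macrophage markers correlated with C1qa at r = 0.973 (rho = 0.950, permutation test, adjusted p = 0.0001 in the family of 8, 15 libraries) and at r = 0.942 without the 2 farthest libraries. The fibroblast markers correlated with C1s1 at r = 0.699 (permutation test, adjusted p = 0.0334), but Spearman's rho was 0.50 (permutation test, adjusted p = 0.175) and r was 0.483 without the 2 farthest libraries, so that relation rests on Mettl3 KO replicate 1 and Mettl14 KO replicate 4. C2 correlated neither with Cfb (r = 0.190, rho = 0.229, permutation test, adjusted p = 0.52) nor with the interferon-gamma response list (r = 0.341, rho = 0.271, permutation test, adjusted p = 0.301) in a way that passed the threshold.

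In a further 24 relations, chosen after the data had been seen, the 8 genes other than C2 and Cfb were set against the macrophage, fibroblast and interferon-gamma lists. With the macrophage markers r was 0.951 to 0.989 for the C1q chains, 0.900 for C1ra, 0.864 for C4b, 0.829 for Serping1, 0.804 for C3 and 0.753 for C1s1. With the interferon-gamma list r was 0.898 for C4b, 0.881 for C1s1 and 0.871 for C1ra, and 0.758 to 0.802 for the C1q chains, C3 and Serping1. With the fibroblast markers r was 0.832 to 0.880 for the C1q chains, 0.838 for C4b, 0.816 for C3, 0.791 for C1ra, 0.699 for C1s1 and 0.693 for Serping1, and 0.394 to 0.744 over the 8 genes without the 2 libraries farthest in that list. Left out likewise, the macrophage relation was 0.929 to 0.979 for the C1q chains and 0.467 for C3, and the interferon-gamma relation 0.532 to 0.791 over the 8 genes. All 24 values of r passed adjustment (permutation test, largest adjusted p = 0.025), and those of rho did not for C1s1 with the macrophage list (0.521) or for C1s1 (0.50) and C3 (0.557) with the fibroblast list. The share of all genes that would pass with these lists was not computed, so the count shows nothing particular to complement genes. The 28 pairs among the 8 genes had r from 0.662 to 0.988, with a median of 0.838, as a description.

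**Figure D5:**
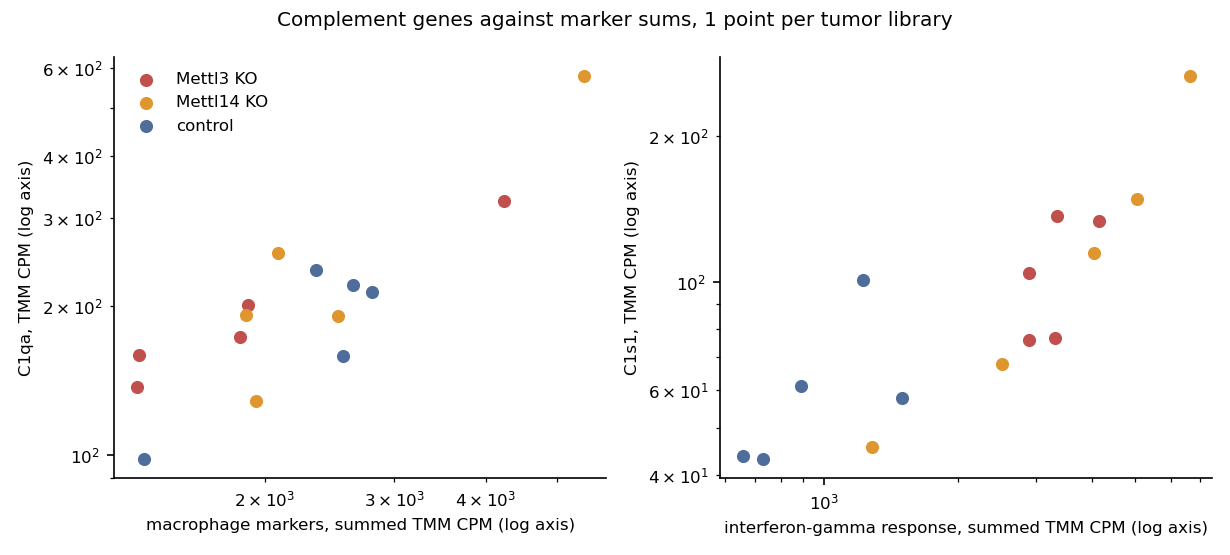
C1qa against the summed macrophage markers (left) and C1s1 against the summed interferon-gamma response genes (right), both in TMM CPM on log axes, 1 point per library coloured by Mettl3 KO, Mettl14 KO or control. On the left the groups overlap along 1 trend; on the right the Mettl3 KO points, at 2892 to 4152 CPM, lie beyond the controls, which reach 1494 CPM.

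The genes whose profile over the 15 libraries was most like that of each complement gene, after group means were removed, were then listed. Gene models were left out, as were the other C1q chains for each C1q chain. So were the partners in the pairs C1ra with C1s1 and C2 with Cfb. The most alike were Rps6ka1 and Ctsz for C1qa (r = 0.983 and 0.980), Tnfaip8l2 and Ptprj for C1qb (0.985 and 0.972), and Ctsz and Ctsb for C1qc (0.978 and 0.971). Ctsz and Ctsb encode lysosomal cathepsins. For C1ra they were Trem2, a receptor of macrophages, and Mpeg1 (0.948 and 0.944), for C1s1 its paralog C1s2 and Itgax (0.964 and 0.939), and for C4b Psap and Il10ra (0.967 each). For C3 they were Dram1 and Ltb (0.963 each) and for Serping1 Cd83 and Itga9 (0.911 and 0.901). For C2 they were Tmem154 and Lax1 (0.953 and 0.935) and for Cfb Dedd and Slc25a43 (0.821 and 0.802). These are the highest of all genes tested apart from those left out, so high values of r are what such a choice returns.

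Among the other complement genes, none of those that passed the count filter was called in any of the 3 comparisons. In Mettl3 KO over control these were 4 of 4 classical paralogs, 5 of 9 lectin pathway, 3 of 4 alternative pathway and 5 of 7 terminal pathway genes, 8 of 10 regulators and 12 of 12 receptors. In Mettl14 KO over control 2 alternative pathway and 3 terminal pathway genes and 9 regulators were tested, and in Mettl3 KO over Mettl14 KO 4, 6 and 9 in that order, with the other 3 lists as before. C1s2, a paralog of C1s1, averaged 24.0 ± 6.91 CPM in Mettl3 KO, 26.4 ± 16.0 CPM in Mettl14 KO, against 13.6 ± 6.13 CPM in control, and C1rl averaged 9.26 ± 1.93 CPM in Mettl3 KO, 9.43 ± 2.13 CPM in Mettl14 KO, against 6.50 ± 1.85 CPM in control (SD, n = 5 each). All 4 paralogs had a log2 fold change above 0 in both knockouts, with a median of 0.75 in Mettl3 KO and 0.78 in Mettl14 KO. The ficolin gene Fcna, of the lectin pathway, averaged 8.60 ± 3.29 CPM in Mettl3 KO, 10.5 ± 2.74 CPM in Mettl14 KO, against 18.6 ± 5.75 CPM in control, that is, on the log2 scale, -1.17 in Mettl3 KO (SE 0.27, adjusted p = 0.0524) and -0.86 in Mettl14 KO (SE 0.24, adjusted p = 0.228). The scavenger collectin gene Colec12 averaged 56.4 ± 26.7 CPM in Mettl3 KO, 76.8 ± 34.3 CPM in Mettl14 KO, against 62.7 ± 16.5 CPM in control.

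Properdin (Cfp), which stabilises the alternative pathway enzyme, averaged 46.4 ± 27.9 CPM in Mettl3 KO, 67.2 ± 54.3 CPM in Mettl14 KO, against 40.5 ± 14.2 CPM in control. Of the terminal pathway, C6 averaged 13.3 ± 6.40 CPM in Mettl3 KO, 11.8 ± 8.23 CPM in Mettl14 KO, against 5.13 ± 3.56 CPM in control, and C8g 2.28 ± 0.550 CPM in Mettl3 KO, 2.38 ± 0.587 CPM in Mettl14 KO, against 2.09 ± 0.746 CPM in control. The regulator Cr1l (Crry) protects mouse cells from C3 deposition and averaged 65.8 ± 10.9 CPM in Mettl3 KO, 81.7 ± 10.8 CPM in Mettl14 KO, against 99.7 ± 18.0 CPM in control, that is, on the log2 scale, -0.66 in Mettl3 KO (SE 0.15, adjusted p = 0.0524) and -0.33 in Mettl14 KO (SE 0.13, adjusted p = 0.380). Clusterin (Clu) averaged 25.0 ± 12.97 CPM in Mettl3 KO, 26.6 ± 5.64 CPM in Mettl14 KO, against 28.3 ± 9.55 CPM in control. Of the C1q receptors, Calr averaged 445.5 ± 67.7 CPM in Mettl3 KO, 593 ± 110.4 CPM in Mettl14 KO, against 515 ± 55.5 CPM in control, and Lrp1 1064 ± 457 CPM in Mettl3 KO, 1449 ± 296 CPM in Mettl14 KO, against 1323 ± 467 CPM in control.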

How the data were processed

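Total counts per gene were deposited by the authors for 15 RNA-seq libraries. Per the submitters' processing notes, cutadapt 1.18, HISAT2 2.1.0, HTSeq 0.11.2, DESeq2 and the mm10 build were used, with no roles given, and per the labels' protocols reads were 75 bases long. The extract protocol names both ribosomal depletion and poly(A) selection, and the RNA-seq labels give polyA RNA. No label states the counting mode or strand setting. The authors' deposited fold change tables hold a mean of normalised reads (a signal of size-factor-scaled counts), a log2 fold change with its error, a Wald statistic (a score) and a p-value with its adjusted value per gene. The 12 MeRIP and input libraries were not analysed here.

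Lines that name no gene, 56.8 to 86.2% of all reads in a library, were left out of totals. Counts were scaled by TMM and tested with edgeR 4.0.16 (R 4.3.3; glmQLFit and glmQLFTest, robust) after filterByExpr with a minimum count of 10, over 10 libraries for each knockout against control and 15 for Mettl3 KO against Mettl14 KO, with Benjamini-Hochberg adjustment over all genes tested and a threshold of 0.05. Intervals of fold changes are 95% intervals from the same fit. Alternatives used RLE factors, library totals, other filters, DESeq2 1.42.0, limma voom 3.58.1, a replicate block, the share of reads outside genes as a covariate, other sets of libraries and leaving out each library. Levels of lists are summed CPM. Relations used log2(CPM + 0.5), averaged over the genes of a list, with group means removed and 100000 permutations within groups. The fits were tested on simulated data. Replicates differed beyond sampling noise in all 30 pairs. Gene positions and overlaps came from GENCODE M21, and symbols were found for 54723 identifiers. Named genes are the 10 members, Mettl3 and Mettl14. Of each other complement list they are the 2 with the highest CPM per kb and every called gene. For each member they are the 2 genes most like it, with gene models, fellow C1q chains and pair partners left out. A gene of the alternative pathway list and a motif are not reported here. Members and lists were chosen with earlier results of these data known.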

Additional observations from a re-analysis of the deposited data

Results flagged for a closer look

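Of 30 sets of 5 libraries (10 genes in 3 groups), 8 had a library whose gap to its nearest neighbour exceeded 0.71 of the group's range, Dixon's 95% critical value. Chance flags about 1 in 20 such groups, and levels of these genes are correlated, so the flags are not separate events. In Mettl3 KO, replicate 1 was flagged for C3 at 993.4 CPM and for C1qb at 225 CPM. In Mettl14 KO, replicate 4 was flagged for C1qa at 578.9 CPM, C1qb at 335.1 CPM, C1qc at 408.3 CPM, C2 at 10.25 CPM and C3 at 948.4 CPM. In control, replicate 1 was flagged for C2 at 4.99 CPM, although it was the lowest of its group for C1qa, C1qb, C1qc, C1ra, C4b and Serping1. The part of cell content or stray reads in these values was not tested.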

How the results depend on the processing

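For Mettl3 KO against control, where 0 complement genes were called, DESeq2 called 4, limma voom 3 and the edgeR fit with the replicate block 2 (C1ra and Serping1), and leaving out single libraries gave 0 to 5, the 5 arising without control replicate 1. All-gene counts moved too, from 266 called in the edgeR fit to 2700 with DESeq2, 5031 with voom, 6002 with the block and 11623 without control replicate 1, and to between 15 and 121 in the other settings. For Mettl14 KO against control DESeq2 called 1 complement gene, and leaving out single libraries gave 0 to 1, with 1053 of all genes called without control replicate 1, 112 without Mettl14 KO replicate 5, 50 in one fit of all 15 libraries and 47 with no filter. The other settings called no complement gene in either comparison, and none was called between the knockouts in any setting. Whether the replicate numbers pair the libraries is not given in the labels, and 5 libraries per group cannot settle it. Same-numbered libraries deviated from their group means with correlations from -0.754 to 0.619, and at most 1 of 5 correlated best with its own number. Library totals moved the median fold change of all genes in Mettl3 KO to 0.01, and in Mettl14 KO to 0.08, and left 5 of 8 relations called in place of 6, the fibroblast relation of C1s1 having an adjusted p of 0.0691 (permutation test). Among single genes, 49 values of uncalled genes changed sign, 16 became called and 515 did neither. The cause of these differences was not tested. C2 and Cfb had at most 131 and 17 reads in a library of the count table. The authors' deposited table holds 2.32 to 2.51 times the mean for C2 and 83.4 to 100.2 times for Cfb. Whether depth or the assignment of reads on shared bases limits their counts was not tested.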
